A study of Mus musculus with 3 samples.

Results

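The glycoprotein hormone subunit genes Cga, Lhb, Fshb and Tshb were followed across every cell cluster of the pituitaries of 3 genotypes. They were picked by gene symbol from a table of 55293 symbols, and all 4 were found. Transcripts had been counted in single cells of dissociated pituitaries from TpitKO, TpitHT and TpitWT mice, called KO, HT and WT here, with 1 library per genotype. Tpit, encoded by Tbx19, is the transcription factor that corticotropes and melanotropes need to make Pomc, the precursor of ACTH. Dead cells had been removed by sorting with propidium iodide, and libraries were made with Chromium 3′ v3 chemistry. The labels do not spell out HT, and they do not give how the allele was made, the strain, the age or sex of the mice, or how many were pooled.

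Cga encodes the alpha subunit that LH, FSH and TSH have in common. Each hormone pairs it with a beta subunit of its own, encoded by Lhb for LH and Fshb for FSH in gonadotropes and by Tshb for TSH in thyrotropes. The beta subunit gives the hormone its receptor specificity and is generally held to limit how much hormone is assembled. LH and FSH act on the gonads and are driven by GnRH, with activin and inhibin acting mainly on Fshb, while TSH acts on the thyroid and is driven by TRH.

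The KO, HT and WT libraries held 13413, 12839 and 11222 cells and 133252735, 152382545 and 107289047 counts, a mean of 9935, 11869 and 9561 counts per cell. Tbx19 was read at 0.690, 12.4 and 17.6 CPM (counts scaled to a common total of 1e6), and Pomc at 58.3, 22576 and 21846 CPM, so the KO library carried little of either. Between 36 and 40 cell barcodes occurred in both libraries of a pair. Clusters are the 21 numbered by the authors, and names ending in "like" rest on marker genes. With 1 library per genotype no difference was tested, no p-value was computed and the spread between mice is unknown. All intervals are at 95% and cover counting error only. They treat counts as independent, and collapsing of reads to molecules is not recorded in the sources used here, so they are too narrow for differences between cells or mice.

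The 250 bases upstream of each gene's RefSeq start (GRCm38.p6) are given here, read on each gene's own strand. Pituitary factors are known to act on these genes through sites in their regulatory DNA, and sites outside these windows were not searched. Capitals mark matches, on either strand, to 6 motifs that were searched: the TATA box as TATAAA, the half-site of SF-1 (encoded by Nr5a1) as AAGGTCA, the site of Pitx factors as TAATCC, that of Egr factors as CNCCCCC, that of GATA factors as AGATAA and that of LIM homeodomain factors as TAATTA. The windows are Cga chr4:34893529-34893778 on the plus strand, Lhb chr7:45420696-45420945 on the plus strand, Fshb chr2:107059652-107059901 on the minus strand and Tshb chr3:102782715-102782964 on the minus strand.
Cga: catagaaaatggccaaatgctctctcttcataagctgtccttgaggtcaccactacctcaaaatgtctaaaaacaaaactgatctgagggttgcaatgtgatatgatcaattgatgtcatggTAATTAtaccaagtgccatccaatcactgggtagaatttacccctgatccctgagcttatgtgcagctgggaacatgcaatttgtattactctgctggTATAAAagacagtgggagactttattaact
Lhb: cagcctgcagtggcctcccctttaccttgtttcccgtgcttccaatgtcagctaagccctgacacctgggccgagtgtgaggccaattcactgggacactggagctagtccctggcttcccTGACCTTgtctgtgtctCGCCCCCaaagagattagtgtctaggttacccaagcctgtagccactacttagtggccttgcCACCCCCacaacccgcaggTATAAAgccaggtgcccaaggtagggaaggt
Fshb: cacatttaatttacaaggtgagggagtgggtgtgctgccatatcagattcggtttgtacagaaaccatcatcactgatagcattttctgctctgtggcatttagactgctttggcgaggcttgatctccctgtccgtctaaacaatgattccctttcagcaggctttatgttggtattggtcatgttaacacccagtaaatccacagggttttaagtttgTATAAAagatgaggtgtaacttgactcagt
Tshb: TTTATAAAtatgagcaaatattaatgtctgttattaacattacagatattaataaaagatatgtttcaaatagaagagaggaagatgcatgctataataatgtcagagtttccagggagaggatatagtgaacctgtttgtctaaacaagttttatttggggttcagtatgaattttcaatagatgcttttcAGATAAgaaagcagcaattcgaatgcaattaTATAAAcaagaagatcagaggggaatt

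All 4 windows held TATAAA, which 12.4% of 32851 promoter windows of the same length held, and its closest copy began 27 to 31 bases before the start. The Lhb window held the SF-1 half-site on the minus strand at -129 to -123 (in 4.08% of windows) and CNCCCCC at -112 to -106 and at -50 to -44 (in 31.4%). In the Cga window TAATTA lay at -128 to -123, reading the same on both strands (in 4.84% of windows). AGATAA was found at -58 to -53 in the Tshb window (in 9.99%), and at -250 to -243 that window held a further pair of overlapping TATAAA matches on opposite strands. Beside TATAAA the Fshb window held none of these letters, and TAATCC, found in 6.25% of windows, was in none of the 4. A match describes letters and not a bound site, and a missing match says nothing of the factor.

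**Figure D1:**
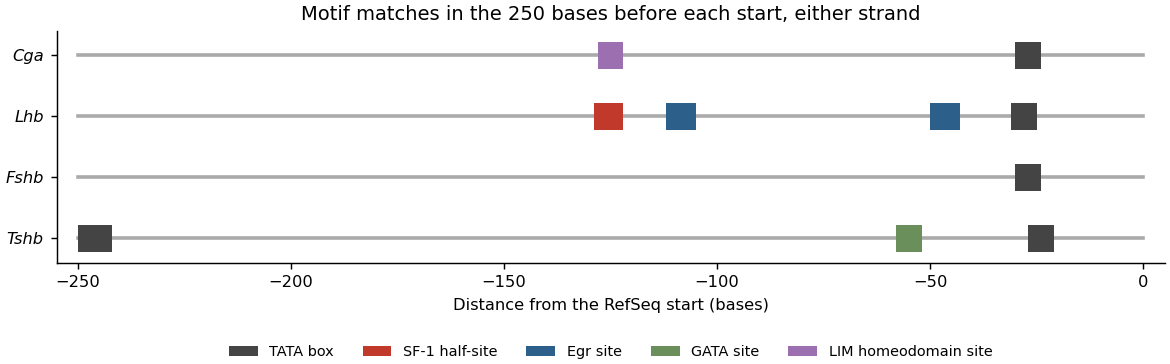
Motif matches in the 250 bases upstream of Cga, Lhb, Fshb and Tshb, drawn by distance in bases from the RefSeq start, with a row per gene and a colour per motif. All 4 genes have a TATA box 27 to 31 bases before the start, and Lhb alone of the 4 has the SF-1 half-site and the Egr sites.

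In the deposited coordinates (GRCm38) all 4 are protein-coding genes on different chromosomes. Cga (ENSMUSG00000028298) spans 34893779 to 34907370 of chromosome 4, and Fshb (ENSMUSG00000027120) spans 107056140 to 107059656 of chromosome 2. Tshb (ENSMUSG00000027857) spans 102775465 to 102782718 of chromosome 3. Lhb (ENSMUSG00000100916) spans 45420820 to 45421897 of chromosome 7, so this annotation starts it inside the window printed above. The row of an overlapping gene model on the same strand, AC151602.1 (45418353 to 45421854), had the same count as Lhb in 59 of 61 combinations of genotype and cluster, and differed by at most 3 counts in the others. Lhb counts therefore stand in the totals more than once, where Lhb made up 1.12%, 1.48% and 1.27% of the counts of cluster 3 in KO, HT and WT. Which gene model these reads belong to cannot be told from the table.

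Counts of the hormone genes were present in cell types that should lack them, which sets a floor for reading every other value. In endothelial-like cluster 9 Cga had 14.9 counts per cell in KO, 7.72 in HT and 6.97 in WT, and 100%, 99.6% and 98.6% of those cells had a Cga count. Tshb had 1.73, 1.09 and 1.33 counts per cell there, in 75.2%, 50.2% and 58.5% of cells. Lhb had 0.451, 0.480 and 0.401 counts per endothelial-like cell, in 30.4%, 26.7% and 28.0% of cells. Fshb was lowest, with 0.217, 0.238 and 0.188 counts per cell in 16.5%, 16.7% and 15.9% of cells. These cells were shallow, at 4250, 4343 and 3610 counts per cell. Macrophage-like cluster 8 and fibroblast-like cluster 15 lay close to them, with 14.9 to 16.4, 7.72 to 8.62 and 6.97 to 7.39 Cga counts per cell over clusters 8, 9 and 15 in KO, HT and WT. The lactotrope-like, somatotrope-like, corticotrope-like and melanotrope-like clusters were little above that, with 14.9 to 18.1, 8.67 to 11.6 and 6.60 to 9.20 Cga counts per cell. A share of cells with a count at these levels is read as background and not as expression. It also differed between genotypes: over all cells the share with a Tshb count was 74.9% in KO, 56.9% in HT and 59.8% in WT, close to the 75.2%, 50.2% and 58.5% of endothelial-like cells.

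Cga was highest in gonadotrope-like cluster 3, next in thyrotrope-like cluster 14 and then in the unnamed cluster 13, in each of the 3 genotypes. In cluster 3 it reached 2228 counts per cell in KO, 2627 in HT and 1470.1 in WT. In cluster 14 it had 1087, 746 and 721 counts per cell, and in cluster 13 it had 288, 246 and 146. These steps between clusters were larger than counting error in every genotype. Cluster 3 held 89.2%, 88.8% and 79.2% of all Cga counts, and cluster 14 held 4.11%, 2.08% and 7.88%. Cga alone took 17.3% of all counts of KO cluster 3, against 16.6% in HT and 13.1% in WT.

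Lhb and Fshb were concentrated in cluster 3. Both are on the gonadotrope marker list, as Tshb is on the thyrotrope list, so their match with the cluster names is partly built in. Cluster 3 held 93.2%, 94.4% and 91.5% of all Lhb counts in KO, HT and WT, and 95.2%, 95.4% and 92.2% of all Fshb counts. Lhb was counted in 99.94%, 99.5% and 100% of its cells. Fshb was counted in 83.9%, 88.6% and 83.5%, so in each genotype a part of the cluster had Lhb and no Fshb count. In thyrotrope-like cluster 14 Lhb had 0.75, 0.37 and 0.40 counts per cell and Fshb 0.27, 0.42 and 0.29, beside endothelial-like levels of 0.451, 0.480 and 0.401 for Lhb and 0.217, 0.238 and 0.188 for Fshb. Cluster 14 cells were deeper than endothelial-like ones, at 10526, 11051 and 9739 counts per cell.

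Tshb belonged to cluster 14, which held 75.3% of its counts in KO, 52.0% in HT and 78.7% in WT. It had 533, 395 and 635 counts per cell there and was counted in 99.4%, 100% and 98.9% of the cells. Much of the rest lay in cells at background level. In HT, which had 52 cells in cluster 14, against 157 in KO and 91 in WT, that rest was nearly as large as the signal of cluster 14 itself. In gonadotrope-like cluster 3 Tshb had 2.50, 2.04 and 1.47 counts per cell, at CPM of 194, 129 and 131.

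**Figure D2:**
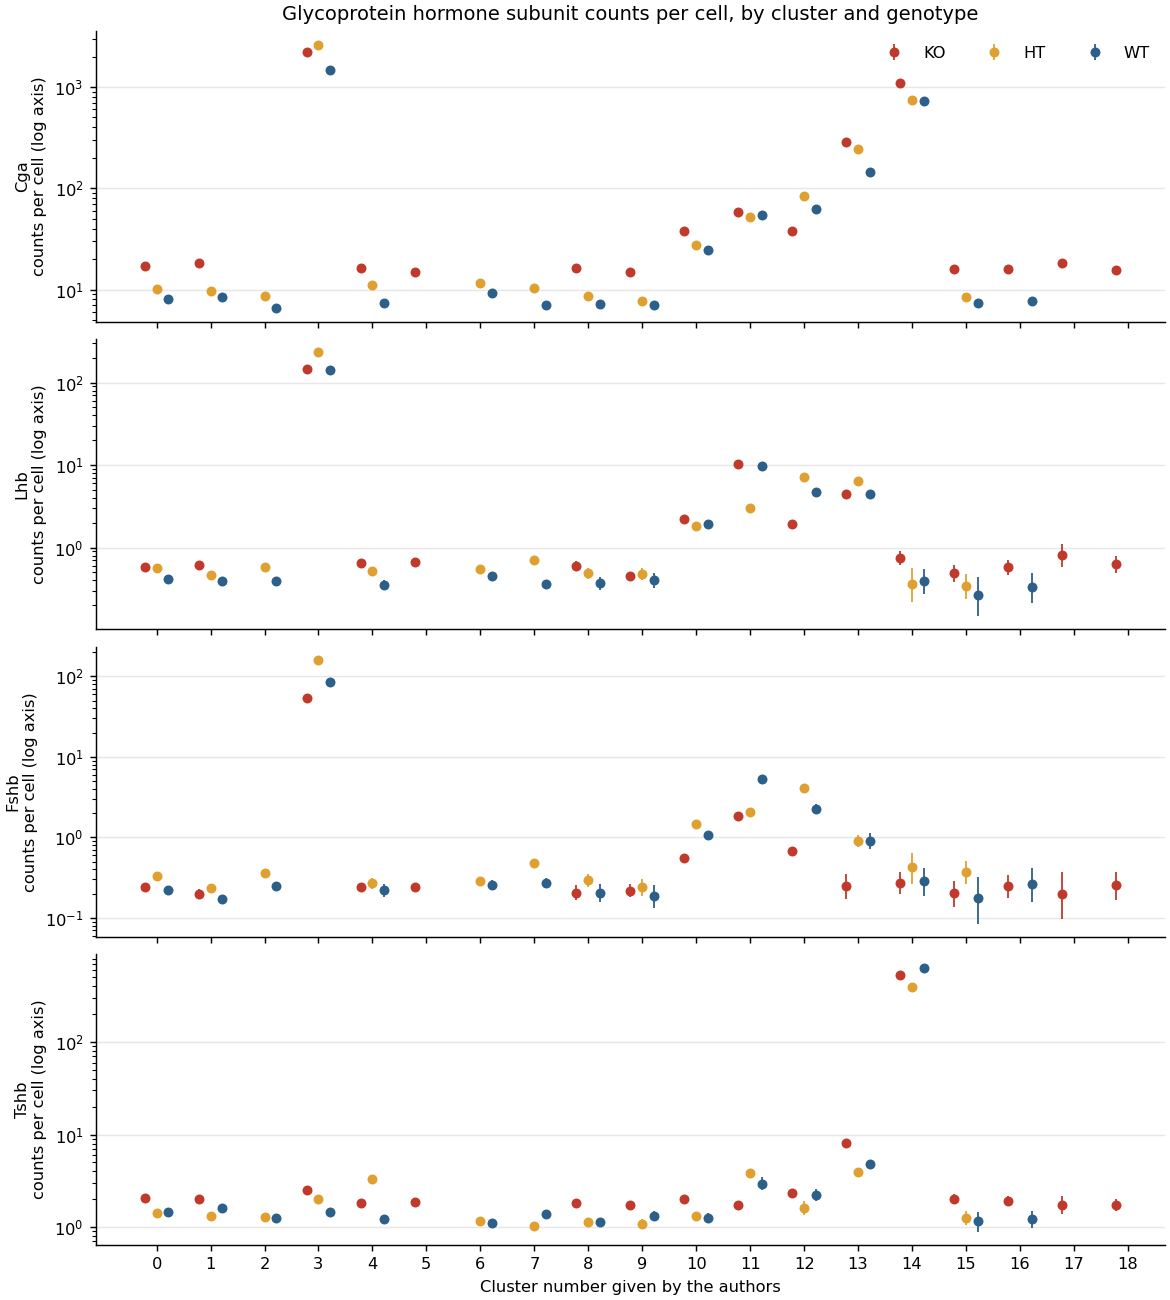
Counts per cell of Cga, Lhb, Fshb and Tshb (log axis, a panel per gene) in each cluster with at least 50 cells, for KO, HT and WT, with exact Poisson 95% intervals as bars. Lhb and Fshb stand out in cluster 3, Tshb in cluster 14, and Cga in clusters 3, 14 and 13, above a level that most other clusters have in common.

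Cluster 13, with 124, 139 and 87 cells in KO, HT and WT, had a high Cga level with little of any beta subunit. Lhb reached 4.46, 6.34 and 4.46 counts per cell there, in 71.0%, 66.2% and 59.8% of cells. Tshb had 8.07, 3.94 and 4.82 counts per cell and was counted in 87.9%, 68.4% and 66.7% of cells. Both were above their endothelial-like levels and far below those of clusters 3 and 14. Fshb had 0.25, 0.90 and 0.91 counts per cell, so the KO value was near background and the HT and WT values were above it. The leading genes of cluster 13 by fold were Selenbp1, H2bu2 and Nefl, and some markers of both hormone lineages were counted in it. Gnrhr, the GnRH receptor gene, was at 232, 153 and 152 CPM, Nr5a1, the SF-1 gene, at 75.0, 88.6 and 94.0 CPM, and Dio2, the thyroid hormone deiodinase gene, at 216, 109 and 124 CPM. Without Lhb and Fshb the gonadotrope marker list summed to 1127, 1369.5 and 1074.5 CPM in cluster 13, beside 5444, 5753 and 5114 CPM in cluster 3 and 145, 111 and 100.4 CPM in endothelial-like cells. The thyrotrope list without Tshb summed to 724, 961 and 899 CPM, beside 2436, 4253 and 3614 CPM in cluster 14 and 268, 299 and 550.1 CPM in endothelial-like cells. With both lists above the endothelial-like level, cluster 13 was given no cell type name. Other clusters passed that level too: in cluster 12 the thyrotrope list without Tshb summed to 394, 540 and 858 CPM. In cluster 11 the gonadotrope list without Lhb and Fshb summed to 1107, 928 and 920 CPM. The thyrotrope list without Tshb summed to 485, 534 and 501 CPM there, below the endothelial-like level in WT. Doublets were not called anew, since counts per single cell were not used here, and their part in these mixed values was not tested.

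Some cells of other clusters also carried gonadotropin counts. In unnamed cluster 11, with 871, 107 and 53 cells, Lhb had 10.4, 3.0 and 9.83 counts per cell in 53.0%, 41.1% and 41.5% of cells, and Cga had 58.5, 51.8 and 54.1. Lhb in stem-cell-like cluster 10 had 2.22, 1.81 and 1.94 counts per cell, in 41.5%, 33.8% and 25.0% of cells. Unnamed cluster 12, with 422, 83 and 86 cells, held 1.92, 7.19 and 4.73 Lhb and 37.5, 84.4 and 62.9 Cga counts per cell. All of these were above the endothelial-like level of at most 0.480. The share of cells with an Lhb count was less raised, and in WT cluster 10 its 25.0% was below the 28.0% of endothelial-like cells. In cluster 11 the cells that had Lhb held 19.6, 7.30 and 23.7 counts each, against 144.8, 234 and 142.5 in cluster 3. Fshb followed cluster 3 at a distance in the same clusters, with 1.84, 2.04 and 5.32 counts per cell in cluster 11 and 0.67, 4.11 and 2.28 in cluster 12. In WT cluster 11 the Fshb counts lay in 13.2% of 53 cells, so that value rests on few cells. After cluster 3, Lhb was highest in cluster 11 in KO and WT and in cluster 12 in HT, so the order of these small clusters was not the same in the 3 libraries. Their other counts differed between libraries as well. The corticotrope list in cluster 11 summed to 210, 33566 and 20058 CPM in KO, HT and WT. Cluster 12 was rich in lactotrope markers, at 499715, 475646 and 424964 CPM, and its globin genes summed to 2869, 1.90 and 0 CPM. The part of these counts was not tested.

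The amount of beta subunit transcript per alpha transcript set the clusters apart. For every 100 Cga counts cluster 3 had 6.49 Lhb counts in KO, 8.88 in HT and 9.69 in WT. Fshb came to 2.41, 6.08 and 5.73 per 100 Cga counts in that cluster. In cluster 14 Tshb came to 49.0, 52.9 and 88.1 per 100 Cga counts. In each of these pairings the KO library had the fewest beta counts per alpha count. Lhb in cluster 13 was at 1.55, 2.58 and 3.06 per 100 Cga counts, below the 3.03, 6.22 and 5.75 of endothelial-like cells in all 3 genotypes. These ratios compare counts of different genes from 3′ ends, so each is to be read across clusters and genotypes and not as a ratio of molecules.

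**Figure D3:**
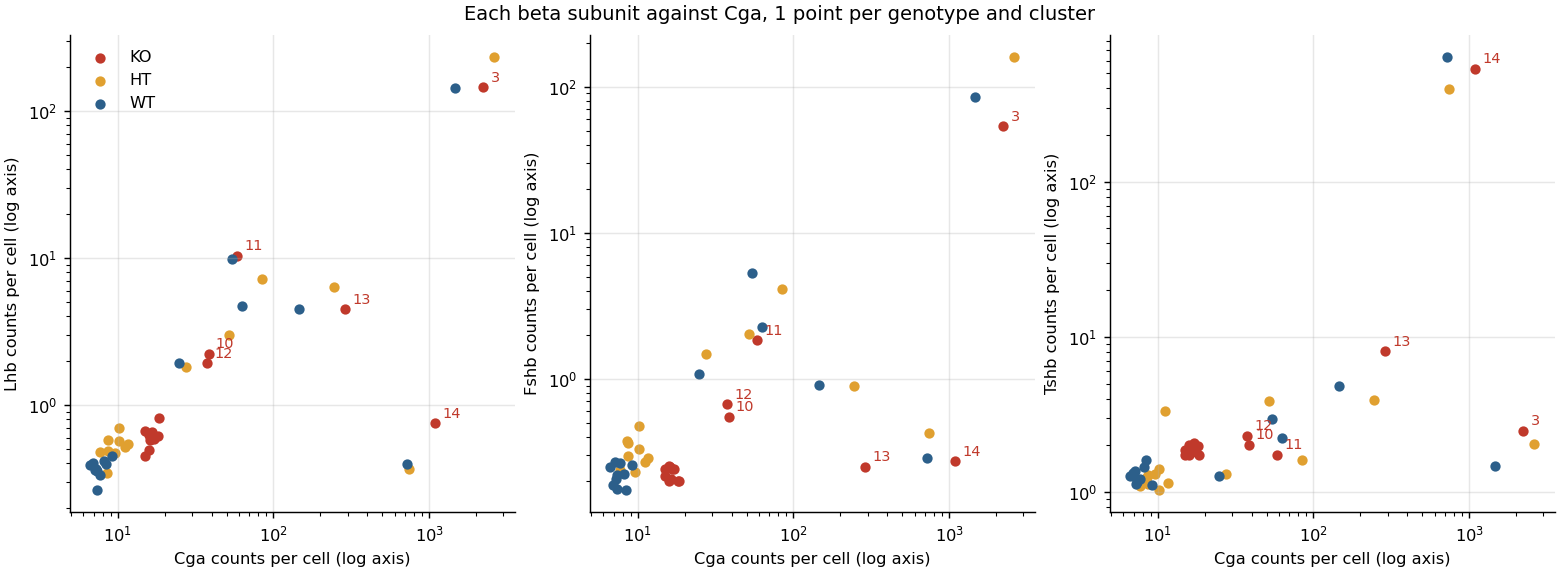
Counts per cell of Lhb, Fshb and Tshb (vertical, log axis) against Cga (horizontal, log axis) in clusters with at least 50 cells, a point per genotype and cluster, with KO clusters numbered. Cluster 3 lies high in both gonadotropin panels and cluster 14 in the Tshb panel, while cluster 13 has a raised Cga level with few beta counts.

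Over all cells of the library Cga was at 31157 CPM in KO, 12225 in HT and 7765 in WT. KO was 4.01 times WT (4.003 to 4.02). Lhb was at 1935, 1022 and 652 CPM, and KO was 2.97 times WT (2.94 to 2.99). Fshb was at 703, 692 and 382 CPM. KO and HT were close for Fshb, and KO was 1.84 times WT (1.82 to 1.86). Tshb was at 833, 259 and 685 CPM, so HT stood apart as low and KO was 1.22 times WT (1.20 to 1.23). After adding 10 CPM, 2 of the 4 genes, Cga and Lhb, were at least 2-fold higher in KO than in WT, as were 0.602% of the 5645 genes with at least 50 counts and 20 CPM. None of the 4 was 2-fold lower, against 0.337% of those genes. Cga and Tshb were at least 2-fold higher in KO than in HT, against 0.267% of genes. In HT against WT Tshb was the only one past 2-fold, on the lower side, with 0.11% of genes, and none of the 4 was higher by that much, with 0.0368%. Fewer cells of a type and less RNA per cell are mixed in these library totals, and the levels within clusters separate them.

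Gonadotrope-like cluster 3 made up 12.4% of KO cells, 4.91% of HT cells and 4.0% of WT cells, 1662, 630 and 449 cells. Within it Cga was at 173212, 166169 and 131177 CPM, higher in KO and HT than in WT. KO was 1.32 times WT and 1.04 times HT. Lhb was at 11247, 14751 and 12715 CPM, lowest in KO and highest in HT, with KO at 0.885 times WT and 0.762 times HT. Fshb was at 4176 CPM in KO, 10102 CPM in HT and 7521 CPM in WT. KO was 0.555 times WT (0.549 to 0.562) and 0.413 times HT (0.410 to 0.417), while HT was 1.34 times WT.

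Among the 4 genes none was 2-fold apart between KO and WT in cluster 3, where 0.167% of 6574 genes were that much higher and 0.7% lower. Fshb was more than 2-fold lower in KO than in HT, with 0.408% of genes, and none of the 4 was higher by that much, with 0.0784%. HT and WT were within 2-fold for all 4, where 0.0311% of genes were that much higher in HT and 0.0466% lower. The share of cells with an Fshb count was close in KO and WT, at 83.9% (82.1 to 85.7) and 83.5%, and the cells that had it carried 64.0 counts in KO, 180.3 in HT and 101 in WT. The proportion of Fshb to Lhb, which the cluster total does not enter, was 37.1 Fshb counts per 100 Lhb counts in KO (36.8 to 37.4), 68.5 in HT (67.9 to 69.0) and 59.2 in WT (58.4 to 59.9). The ratio was also lowest in KO in clusters where both genes were near background, such as lactotrope-like cluster 0, at 41.2 in KO, 58.0 in HT and 53.7 in WT, and macrophage-like cluster 8, at 34.1, 60.7 and 55.8. Endothelial-like cluster 9 had 48.2, 49.6 and 47.0 with overlapping intervals. Clusters 10 and 11, where Lhb was above background, had 24.8 and 17.7 in KO, against 81.5 and 67.9 in HT and 55.6 and 54.1 in WT. Cluster 11 did not have like content in the libraries, with Pomc at 196 CPM in KO, 33462 in HT and 19954 in WT, so genotype and cell content cannot be told apart there. Counts of both genes in clusters 0 and 8 are read as background, so their ratios are no second observation beside that of cluster 3 in the same library.

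The cells of cluster 3 had 12862 counts each in KO, 15808 in HT and 11207 in WT, so per cell the order was partly different. Lhb had 144.7 counts per cell in KO, 233 in HT and 142.5 in WT, with KO and WT nearly equal at a ratio of 1.015. Fshb had 53.7, 159.7 and 84.3 counts per cell and stayed lowest in KO. Markers of other lineages in cluster 3 differed between libraries. The summed corticotrope list was at 19.1, 1623 and 2321 CPM, the somatotrope list at 6220, 8269 and 10759 CPM and the lactotrope list at 5796, 2413 and 5603 CPM. Most of the corticotrope sum was Pomc, at 18.9, 1621 and 2315 CPM. In endothelial-like cells the 3 lists summed to 10.7, 1301 and 3220, to 26903, 39613 and 94535, and to 24138.5, 9731 and 38172 CPM. The somatotrope and lactotrope sums of cluster 3 were thus below the endothelial-like level in every library, and the corticotrope sum was below it in WT. The part of other-lineage counts in the Fshb and Cga differences of cluster 3 was not tested.

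In thyrotrope-like cluster 14, 1.17% of KO, 0.405% of HT and 0.811% of WT cells, Cga and Tshb differed between genotypes in opposite directions for KO against WT. Cga was at 103256 CPM in KO, 67536 CPM in HT and 74078 CPM in WT, and KO was 1.39 times WT (1.38 to 1.41) and 1.53 times HT. Tshb was at 50619.6, 35710.1 and 65253 CPM, highest in WT and lowest in HT. KO was 0.776 times WT (0.768 to 0.784) and 1.42 times HT, and HT was 0.547 times WT. Neither gene was 2-fold apart between KO and WT, where 0.278% of 6122 genes were that much higher and 0.751% lower. The same held for KO against HT, with 0.52% of genes higher and 0.806% lower, and for HT against WT, with 0.452% higher and 0.761% lower. The cells differed in other counts too: the 4 globin genes of the red cell list summed to 6.1, 0 and 1197 CPM, and the lactotrope list to 10075, 2537 and 3448 CPM. In endothelial-like cells these lists summed to 1578, 14694 and 929 CPM and to 24138.5, 9731 and 38172 CPM. Of the cluster 14 sums only that of globin genes in WT was above the endothelial-like level. The part of these counts in the Cga and Tshb differences was not tested.

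In cluster 13 Cga was at 40546, 28808 and 22458 CPM in KO, HT and WT, highest in KO as in cluster 14, but with HT above WT. Fshb there was more than 2-fold lower in KO than in both other genotypes, as were 0.897% of genes against WT and 0.647% against HT. Tshb was more than 2-fold higher in KO than in HT, with 0.358% of genes. No other of the 4 was past 2-fold in this cluster, where 0.534% of genes were that much higher in KO than in WT, and 0.338% higher and 0.563% lower in HT than in WT. The KO value of Fshb was near its background.

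**Figure D4:**
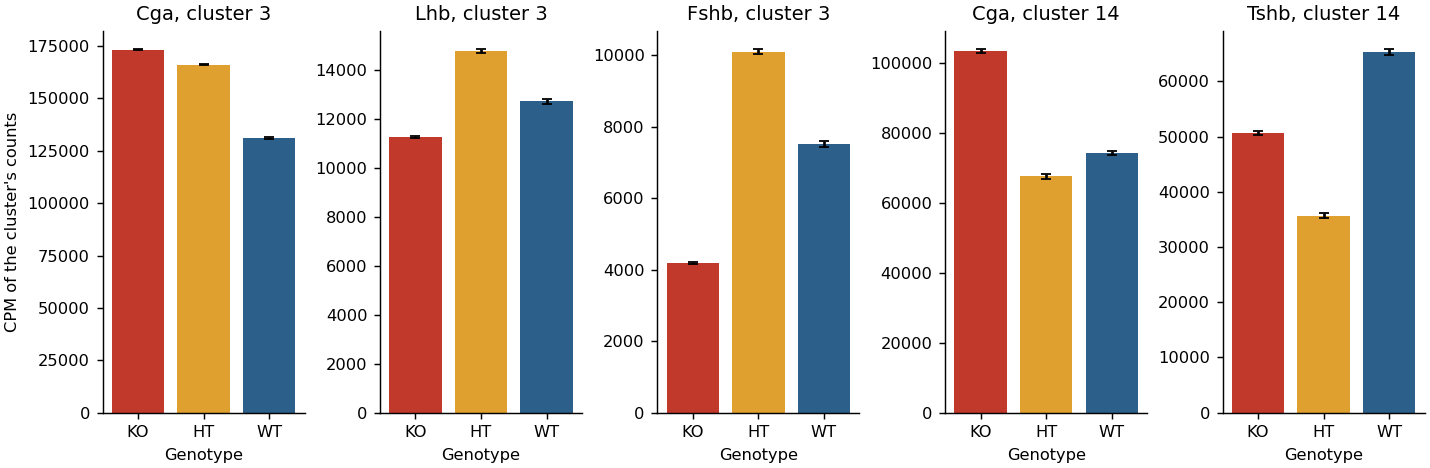
CPM of Cga, Lhb and Fshb in gonadotrope-like cluster 3 and of Cga and Tshb in thyrotrope-like cluster 14, a bar each for KO, HT and WT, 1 library per bar, with exact Poisson 95% intervals. Fshb in cluster 3 is lowest in KO at 4176 CPM, and Tshb in cluster 14 is highest in WT at 65253 CPM.

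The difference between libraries in counts per cell was divided into a part from the share of cells in each cluster and a part from the level per cell within clusters. Over all cells Cga had 309.5 counts per cell in KO, 145.1 in HT and 74.2 in WT. Of the 235.3 counts per cell by which KO exceeded WT, 161.8 (68.8%) came from cell shares and 73.5 (31.2%) from levels. The larger share of cluster 3 gave 155.1 of the first part, and its higher level 62.1 of the second. Levels here are counts per cell and carry depth: Cga in KO cluster 3 was 1.52 times WT per cell and 1.32 times in CPM. Lhb was 12.99 counts per cell higher in KO than in WT, of which 12.7 (97.8%) came from cell shares and 0.288 from levels. Against HT the parts had opposite signs for both genes: KO exceeded HT by 164.4 Cga counts per cell, with 190.8 from shares and -26.4 from levels, and by 7.10 Lhb counts per cell, with 14.5 from shares and -7.43 from levels.

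For Fshb the parts had opposite signs against WT as well as against HT. KO exceeded WT by 3.33 counts per cell, made of 5.98 from cell shares and -2.65 from levels. Against HT the KO library was lower, by -1.23 counts per cell, with 8.06 from shares and -9.29 from levels. Tshb in KO exceeded WT by 1.73 counts per cell, with 2.29 from shares and -0.562 from levels. Cluster 14 gave 2.10 of the first part and -1.02 of the second. Cluster 3 gave 0.166 and 0.0839, and the other clusters gave 0.391 in both parts together, though most of these cells had Tshb near background. Against HT Tshb in KO was higher by 5.20, with 3.82 from shares and 1.39 from levels. HT differed from WT by -3.48 Tshb counts per cell, -2.06 from shares and -1.42 from levels. For Cga, Lhb and Fshb the excess of HT over WT, 70.9, 5.89 and 4.56 counts per cell, came mainly from levels, with 54.6, 4.16 and 3.44. HT cells were deeper than WT cells in every comparison given here, and counts per cell carry that depth.

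**Figure D5:**
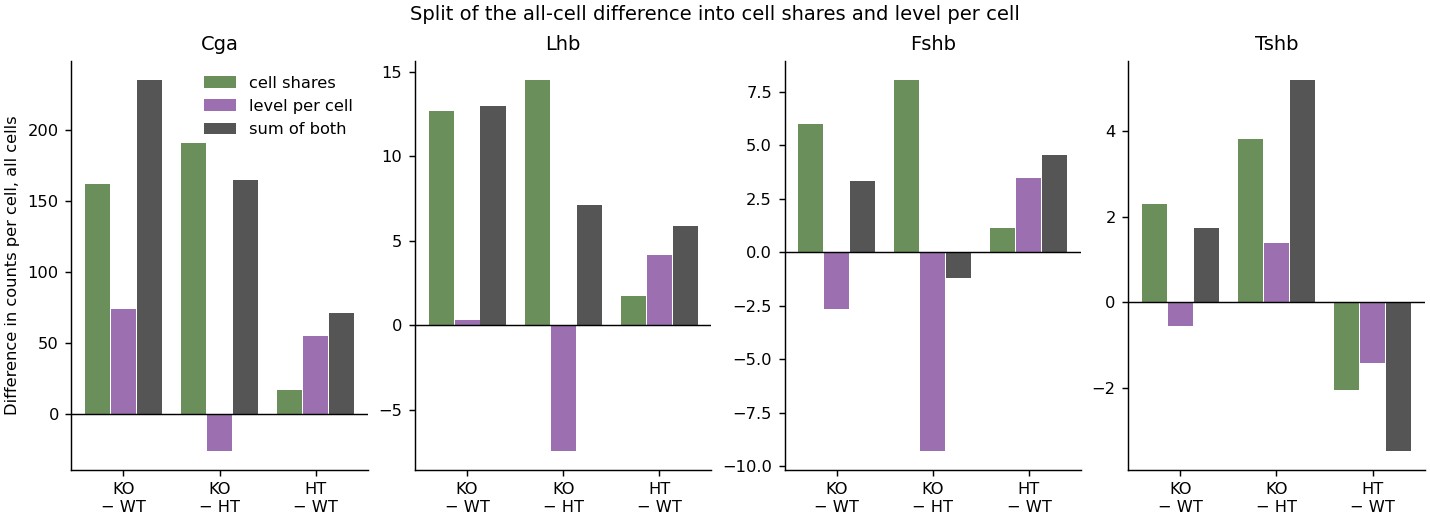
Difference in counts per cell over all cells for Cga, Lhb, Fshb and Tshb, for KO minus WT, KO minus HT and HT minus WT, with bars for the part from cell shares, the part from the level per cell and their sum. For Fshb in KO minus WT the share part is 5.98 and the level part -2.65.

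Genes that act around these subunits were counted from lists. Of 18 gonadotrope regulators 16 passed the filter in cluster 3 and none was 2-fold apart between KO and WT, where 0.167% of all genes tested were that much higher and 0.7% lower. At such shares a count of 0 says little about a list of this size. Their median log2 ratio was 0.10, beside -0.04 over all genes there. Egr1, the factor through which GnRH acts on Lhb, was at 999.9, 894 and 1078 CPM in KO, HT and WT. Gnrhr was at 1880.5, 1520.4 and 1478 CPM, highest in KO. Pitx1 was at 489.5, 459.7 and 578 CPM and Gata2 at 241, 232 and 333.5 CPM, both highest in WT. In cluster 14, where 10 of the 18 passed, again none was 2-fold apart, beside 0.278% of genes higher and 0.751% lower, with a median of 0.27, beside -0.05 over all genes.

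Of 10 genes of activin and inhibin signalling 4 passed in cluster 3, and Inhbb, which encodes a beta subunit of activin and inhibin, was the 1 that was 2-fold apart, on the lower side, as were 0.7% of all genes tested there. It was at 26.2 CPM in KO, 59.4 in HT and 83.1 in WT, and was counted in 21.3%, 46.2% and 49.2% of cells. KO was thus lower than both other libraries, by 3.17-fold against WT (2.79 to 3.61). Activin is the known inducer of Fshb, and the relation between the 2 genes was not tested. Tgfbr3l, encoding the inhibin B co-receptor of gonadotropes, was at 2765, 3332 and 2960.2 CPM, Smad7 at 31.2, 28.3 and 27.4 CPM and Acvr2b at 24.0, 19.3 and 23.8 CPM. In cluster 14 a single gene of this list passed and it was not 2-fold apart, beside 0.278% of genes higher and 0.751% lower.

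The thyrotrope regulators were read in cluster 14, where 8 of 9 passed and none was 2-fold apart between KO and WT, beside 0.278% of all genes higher and 0.751% lower. Their median was 0.11, against -0.05 over all genes. Dio2 was at 448, 263 and 302 CPM in KO, HT and WT, highest in KO. Pou1f1, which encodes the factor that thyrotropes, somatotropes and lactotropes need, was at 327, 371 and 344 CPM. The TRH receptor gene Trhr was at 126, 94.0 and 129 CPM, and Rxrg at 98.0, 122 and 84.6 CPM. In cluster 3, 4 of the 9 passed and none was 2-fold apart, beside 0.167% of all genes higher and 0.7% lower. The median there was -0.07, beside -0.04 over all genes. At such shares a count of 0 says little about so few genes.

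Glycoprotein hormones carry sulfated glycans, and of 9 genes for building and sulfating them 6 passed in cluster 3, none 2-fold apart, with a median of 0.20, beside -0.04 over all genes and 0.167% of genes higher and 0.7% lower. Man2a1, a Golgi mannosidase gene, was at 146, 119.5 and 109 CPM in KO, HT and WT. Chst8, the sulfotransferase gene for LH glycans, was at 63.1, 47.6 and 44.9 CPM, and both were highest in KO. Mgat1 was at 30.5, 22.7 and 33.4 CPM and Mgat2 at 27.4, 30.6 and 27.03 CPM. In cluster 14, 3 of the 9 passed, all of them lower in KO than in WT and none by 2-fold, with a median of -0.63, beside -0.05 over all genes and 0.278% of genes higher and 0.751% lower.

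The other genes of the hormone family and the receptor genes had few counts, and none of the 5 genes of this list passed the filter in cluster 3 or 14. Gpha2, the gene of the alpha subunit of thyrostimulin, had 37, 66 and 45 counts in cluster 3 of KO, HT and WT, at 1.73, 6.63 and 8.94 CPM. KO was thus 5.17-fold lower than WT (3.27 to 8.21), at a level of few counts. Gphb5, the beta subunit gene of thyrostimulin, and the FSH receptor gene Fshr had no count in any library, and a limit of 3 counts per library, used here for a count of 0 in place of the Poisson interval, corresponds to 0.0225, 0.0197 and 0.0280 CPM in KO, HT and WT. The LH receptor gene Lhcgr had 3, 8 and 7 counts in all cells. Tshr, the TSH receptor gene, had 79, 75 and 39 counts in all cells of KO, HT and WT. Of these, 19 lay in cluster 14 of KO, 0 in that of HT and 2 in that of WT.

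The genes whose levels ran most like each subunit were found over 47 combinations of genotype and cluster with at least 50 cells, by Pearson's r of log2(CPM + 10). The 4 subunits themselves and rows that overlap them, such as AC151602.1, were left out of this ranking. These combinations come from 3 libraries and share their depth and background, so r is descriptive. Among the genes ranked, Lhb ran closest to Tgfbr3l (0.944), Gm49320 (0.942), Gnrhr (0.939), Nxnl2 (0.889) and Spock1 (0.873). For Fshb they were Gnrhr (0.873), Tgfbr3l (0.854), Gm49320 (0.853), 1810064F22Rik (0.850) and Rhd (0.848). Gm49320 overlaps Tgfbr3l, and their counts may be of the same reads. Tshb ran closest to Trhr (0.931), Grxcr2 (0.927), Pvalb (0.914), Rskr (0.886) and Slc10a4 (0.870). Cga, present in several clusters, had lower values, led by Kcnk3 (0.846), Shisa9 (0.825), Isl1 (0.824), Ccdc68 (0.815) and Nr5a1 (0.812). Among the 4 themselves Lhb and Fshb had an r of 0.946, Cga had 0.733 with Lhb, 0.677 with Fshb and 0.588 with Tshb, and Tshb had -0.073 with Lhb and -0.098 with Fshb.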

How the data were processed

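Per the labels, pituitary cells of 3 genotypes were sequenced with 1 library each. Cell Ranger 5, Seurat 3.1 and DESeq2 are listed in the submitters' processing notes, as are the builds mm10 and GRCm38, with no step given. The authors deposited raw counts per gene, summed for each of 61 combinations of genotype and cluster (KO had no cells in clusters 6 and 7), with the number and fraction of cells having a count. Rows of the same symbol were added (110 of 55403). The authors also deposited a scaled table, whose values are a signal and not counts, and it served as an alternative only. The deposited cell table, holding cluster numbers and UMAP coordinates (a score), gave the cells per combination.

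Summed counts were divided by the total of the cell group (CPM) or by its cells. Intervals were exact Poisson for levels, Clopper-Pearson for shares and conditional binomial for ratios, at 95%. For the comparison with other genes, 10 CPM was added and genes needed 50 counts in both genotypes together and 20 CPM in either. With 1 library per genotype no count model was fitted. Counts per single cell were not used here, so cells were not thinned to equal depth and shares of cells with a count carry the depth differences. The split weights each cluster by the mean of both genotypes. Marker and gene lists and the 4 genes were chosen with earlier results of these data known. Named beside the 4 genes were list genes past 2-fold in cluster 3 or 14 for KO against WT and the 4 of each list with the most counts. The 5 genes of highest correlation for each subunit were named too, leaving out the 4 genes and rows that overlap them. Genes of the family list were named below the filter as well. Promoters came from RefSeq (GRCm38.p6), with all 4 matched. The calculations were tested on simulated data. Python 3.11.15, pandas 2.3.3, numpy 2.4.6, scipy 1.17.1 and matplotlib 3.10.9 were used.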

Additional observations from a re-analysis of the deposited data

How the results depend on the processing

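No paired analysis was possible because there was 1 library per genotype, and for the same reason no replicate could be left out. Values are log2 ratios of KO over WT. As reported they were 2.00 (Cga), 1.57 (Lhb), 0.88 (Fshb) and 0.28 (Tshb) over all cells, 0.40, -0.18 and -0.85 for Cga, Lhb and Fshb in cluster 3, and 0.48 and -0.37 for Cga and Tshb in cluster 14. With hormone and mitochondrial genes left out of the totals they were 1.93, 1.5, 0.81 and 0.21 over all cells, 0.46, -0.12 and -0.79 in cluster 3, and 0.51 and -0.34 in cluster 14. Median-of-ratios scaling gave 1.93, 1.5, 0.81 and 0.21, then 0.49, -0.085 and -0.76, then 0.58 and -0.26. Mean counts per cell gave 2.06, 1.62, 0.93 and 0.34, then 0.60, 0.022 and -0.65, then 0.59 and -0.25, so Lhb in cluster 3 changed sign. Counts per cell less the endothelial-like level gave 2.13, 1.69, 0.97 and 0.33, then 0.60, 0.021 and -0.65, then 0.59 and -0.26, with the same change of sign. The authors' scaled values gave 0.46, -0.12 and -0.79 in cluster 3, and 0.47 and -0.37 in cluster 14. Summed over clusters they gave 0.43, -0.18, -0.88 and -0.32, where Lhb, Fshb and Tshb changed sign. These sums lay near the values within clusters 3 and 14 and far from the all-cell ratios of raw counts. Whether the scaling keeps the number of cells in a cluster was not tested, so the sums are not read as an all-cell measure. Without clusters 6 and 7, absent from KO, the values over all cells were 1.83, 1.38, 0.69 and 0.12. Adding 10 CPM moved Lhb to 1.56 and Fshb to 0.86 over all cells. Fshb in cluster 3 was thus lower in KO, and Cga higher in KO in both clusters, under every setting run. Genes 2-fold apart numbered 53 over all cells, 57 in cluster 3 and 63 in cluster 14, and 94, 105 and 183 when 1 CPM was added in place of 10. With no filter cluster 14 had 141. Small clusters were limited by depth, with 157 KO and 91 WT cells in cluster 14.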

Other observations

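In lactotrope-like cluster 4 of HT Tshb had 3.32 counts per cell while 55.6% of the cells had a count, 5.98 counts for each such cell. The endothelial-like cells of that library had 1.09 counts per cell in 50.2% of cells. Chst9, a sulfotransferase gene of the glycan list, had 28, 1 and 2 counts in cluster 14, at 16.9, 1.74 and 2.26 CPM. Chst9 was named after its values were seen, and it was below the filter on low counts.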
